A study of Mus musculus with 3 samples.

Results

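The 9 genes described here encode gasdermins (Gsdma, Gsdmc, Gsdmd and Dfna5), inflammatory caspases (Casp1 and Casp4), the initiator caspase Casp8, the inflammasome adaptor Pycard and the inflammasome sensor Nlrp3. They were chosen by name, with their levels in these libraries in view, so those levels are a description and no test stands behind them. Of the 15529 named genes in the 3 deposited tables, 8 of the 9 were listed in at least 1 table and 6 in all of them. Gsdma was in no table and was taken as 0 throughout. Messenger RNA was measured by RNA sequencing in 3 cultured mouse tumour lines: B16-F1 (skin melanoma, strain C57BL/6J), Cloudman S91 (skin melanoma, strain DBA) and 4T1 (mammary carcinoma, strain BALB/cfC3H). B16-F1 and Cloudman S91 were cultured in DMEM and 4T1 in RPMI, all with fetal bovine serum and with no treatment named. Each line was sequenced as 1 library, so no difference has a replicate check. Strain and line differ together between the melanomas, and tumour type and medium also differ against 4T1, so these cannot be told apart.

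The libraries held 9098072 (B16-F1), 7412840 (Cloudman S91) and 8968897 (4T1) expected counts. Values are FPKM, fragments per kilobase of transcript scaled to library size, with 95% intervals from the counts that cover counting error only. Genes absent from a table were taken as 0. Folds against them, given as "at least", put 3 counts in their place in that library. They leave out the counting error of the listed value. The labels were checked with marker genes. All 7 melanocyte markers reached FPKM 1 in B16-F1 and in Cloudman S91, with summed levels of 10208 and 8933 against 7.08 in 4T1, where Dct, Tyrp1, Mlana and Sox10 were not listed and Tyr (5.74) and Mitf (1.23) were. The 8 markers of simple epithelium summed to 0.51 in B16-F1 and 2.62 in Cloudman S91, against 2152 in 4T1, where all of them reached FPKM 1.

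Gasdermins are proteins whose amino-terminal part opens pores in the plasma membrane once a protease cuts it free, which releases cytokines and can end in lytic death (pyroptosis). In macrophages a sensor such as Nlrp3 gathers the adaptor ASC, the product of Pycard, which activates caspase-1. Caspase-1 and the lipopolysaccharide-binding caspase-11, the product of mouse Casp4, cut gasdermin D. Gasdermin E is the product of Dfna5 (Gsdme in current nomenclature), and in human cancer cells caspase-8 has been found to cut gasdermin C. Gasdermin A is best known from skin and hair follicles.

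Sequence before the transcript start was matched by gene number for 6 of the 9 genes in RefSeq GRCm38.p6. Those of Pycard, Casp1, Casp4 and Dfna5 are shown, since each of these genes had 1 to 3 counts in a line and was far higher in another. Each runs 5′ to 3′ on the gene's strand over the 250 bases before a RefSeq start (for Dfna5 a start inside the gene's span), with CpG dinucleotides, the bases that DNA methylation acts on, in capitals. They lie at chr7:127993868-127994117 on the minus strand for Pycard, chr9:5298267-5298516 on the plus strand for Casp1, chr9:5308599-5308848 on the plus strand for Casp4 and chr6:50261770-50262019 on the minus strand for Dfna5.
Pycard: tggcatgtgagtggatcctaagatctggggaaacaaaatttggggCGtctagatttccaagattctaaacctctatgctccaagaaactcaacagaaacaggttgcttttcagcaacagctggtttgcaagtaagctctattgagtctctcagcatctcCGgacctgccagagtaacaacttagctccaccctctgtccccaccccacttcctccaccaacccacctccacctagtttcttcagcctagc
Casp1: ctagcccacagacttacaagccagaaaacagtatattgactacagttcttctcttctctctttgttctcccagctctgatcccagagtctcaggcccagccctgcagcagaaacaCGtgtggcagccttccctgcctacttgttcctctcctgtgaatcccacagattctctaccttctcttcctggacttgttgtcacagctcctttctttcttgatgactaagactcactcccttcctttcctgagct
Casp4: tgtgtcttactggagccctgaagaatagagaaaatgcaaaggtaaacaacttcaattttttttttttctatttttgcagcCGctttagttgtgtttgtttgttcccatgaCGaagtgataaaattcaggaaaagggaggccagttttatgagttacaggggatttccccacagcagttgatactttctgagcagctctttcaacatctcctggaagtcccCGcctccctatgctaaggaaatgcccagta
Dfna5: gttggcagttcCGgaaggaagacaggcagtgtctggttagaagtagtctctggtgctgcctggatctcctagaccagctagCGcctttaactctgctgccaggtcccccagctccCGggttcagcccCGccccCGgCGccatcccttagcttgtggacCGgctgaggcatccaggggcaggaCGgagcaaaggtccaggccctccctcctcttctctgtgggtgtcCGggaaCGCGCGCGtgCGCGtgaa
The window of Dfna5 held 15 CpG, more than 72.7% of the 32851 RefSeq windows of the same length, whose median was 6. Those of Pycard, Casp1 and Casp4 held 2, 1 and 3 CpG, more than 18.8%, 7.87% and 29.0% of them. A search on both strands for 7 motifs (the M-box CATGTG, the E-box CACGTG, the AP-1 site TGACTCA, the TATA box TATAAA, the CCAAT box, the GC box GGGCGG and the interferon-stimulated response element) found CATGTG in Pycard, CACGTG in Casp1 and GGGCGG in Dfna5. These letters are held by 12.3%, 6.02% and 32.7% of all windows. The motifs not found in the printed windows are held by 4.46% (AP-1), 12.4% (TATA box), 33.8% (CCAAT box) and 2.98% (interferon-stimulated response element) of all windows. None of the 7 was in the window of Casp4, and no printed window held more than 1 of them. The match is one of letters in this window and carries no information on binding or methylation in these lines, which was not measured.

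Gsdmc (chromosome 15, 63775971 to 63808739, minus strand) was the most abundant gasdermin of the series and had the largest difference among the 9 genes. Its level was 51.66 FPKM in B16-F1 (48.7 to 54.8, from 1107.96 expected counts), and it was not listed in Cloudman S91 or in 4T1. In B16-F1 it stood above 88.5% of the named genes listed there. The level was at least 307-fold higher in B16-F1 than in Cloudman S91 and at least 372-fold higher than in 4T1. Gsdmc has 3 tandem copies beside it, and Gsdmc2, Gsdmc3 and Gsdmc4 were near 0: Gsdmc2 had 0.06 FPKM in B16-F1, Gsdmc4 had 0.06 in B16-F1 and 0.07 in Cloudman S91, against 0.66 in 4T1, and Gsdmc3 was in no table. Of the 50-base windows of the Gsdmc transcript in GENCODE vM21, 16.4% also occur in a transcript of another gene, most often Gsdmc2 (288 of 2356 windows). With the copies added together the level was 51.78 in B16-F1, with 0.07 in Cloudman S91 and 0.66 in 4T1. In B16-F1 the row of Gsdmc joins the RefSeq transcript with an assembled one. In bulk libraries a level shared by all cells and a higher level in some of them cannot be told apart.

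Gsdmd (chromosome 15, 75862144 to 75867408, plus strand), the gasdermin downstream of inflammasomes, was highest in 4T1. It had 0.38 FPKM in B16-F1 (0.139 to 0.827, 6 counts), 1.96 in Cloudman S91 (1.27 to 2.89, 25 counts) and 8.19 in 4T1 (6.93 to 9.61, 150 counts), and these intervals do not overlap. The level was 21.6-fold lower in B16-F1 than in 4T1 (9.67 to 59.7), 4.18-fold lower in Cloudman S91 than in 4T1 (2.72 to 6.66) and 5.16-fold lower in B16-F1 than in Cloudman S91 (2.07 to 15.4). The 4T1 row includes an assembled transcript that lengthens the gene to 2106.56 bases, against 1776 in the melanoma tables. In counts scaled to the library total, with no length, the level was 25.4-fold lower in B16-F1 than in 4T1 and 4.96-fold lower in Cloudman S91 than in 4T1.

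Dfna5 (chromosome 6, 50207401 to 50263857, minus strand) was low in every line and near 0 in Cloudman S91. It had 2.32 FPKM in B16-F1 (1.69 to 3.11), 0.06 in Cloudman S91 (0.00152 to 0.334, from 1 count) and 2.37 in 4T1 (1.72 to 3.18), with 44 counts each in B16-F1 and 4T1. B16-F1 and 4T1 did not differ beyond counting error, at a ratio of 0.979 (0.630 to 1.52). The level was 38.7-fold higher in B16-F1 than in Cloudman S91 (6.59 to 1562) and 39.5-fold lower in Cloudman S91 than in 4T1 (6.73 to 1595), intervals that are wide because they rest on 1 count. The next coding gene, Mpp6, a membrane scaffold protein 8.2 kb away, was also lowest in Cloudman S91, with 47.15 FPKM in B16-F1 and 1.96 in Cloudman S91, against 45.48 in 4T1. It was 24.1-fold higher in B16-F1 than in Cloudman S91 (16.8 to 35.6). Osbpl3, an oxysterol-binding protein gene on the other side, 29.5 kb away, had 2.69 in B16-F1, with 0.84 in Cloudman S91 and 12.72 in 4T1. Neighbours were looked up for all 9 genes and these were chosen after their values were seen. No 50-base window of Dfna5 or Gsdmd occurs in a transcript of another gene.

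Gsdma (chromosome 11, 98664337 to 98677708, plus strand) was in no table, and neither were its tandem copies Gsdma2 and Gsdma3 nor Pjvk, the remaining gasdermin family gene. None of the 6 further family genes reached FPKM 1 in any line.

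**Figure D1:**
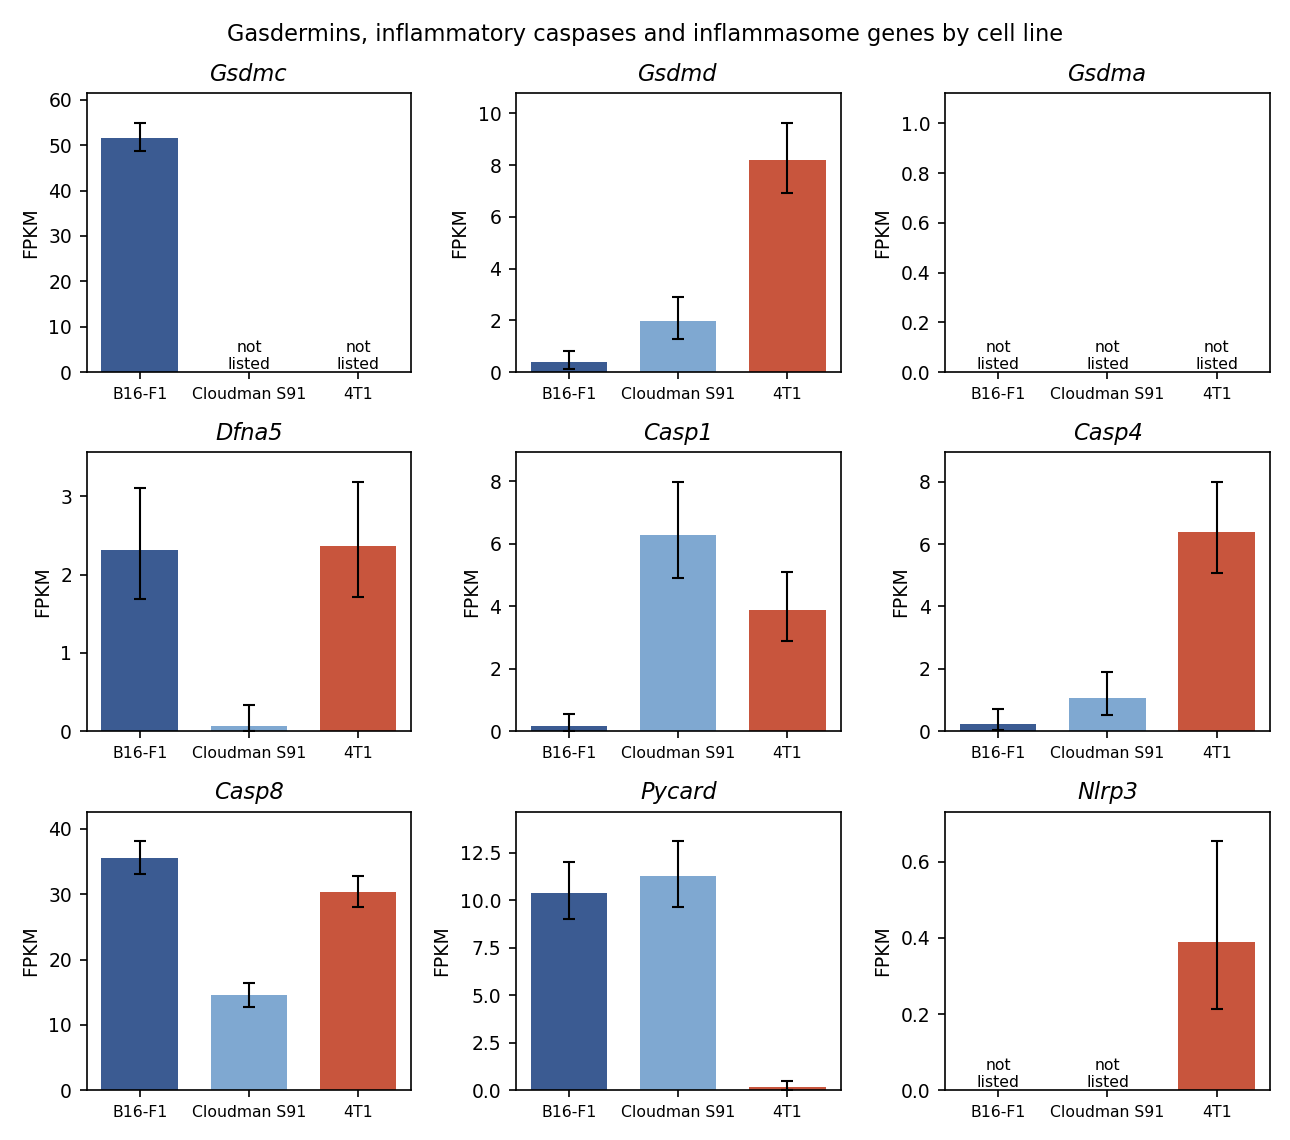
FPKM (linear axis from 0, one scale per gene) of the 9 genes in the single libraries of B16-F1, Cloudman S91 and 4T1, with 95% counting intervals as error bars. Gsdmc stands at 51.66 in B16-F1 and is not listed elsewhere, Pycard at 10.40 in B16-F1 and 11.27 in Cloudman S91 against 0.16 in 4T1, and Gsdmd at 8.19 in 4T1.

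Casp1 (chromosome 9, 5298517 to 5307281, plus strand), the caspase that inflammasomes activate, was near 0 in B16-F1. It had 0.15 FPKM in B16-F1 (0.0182 to 0.542, from 2 counts), 6.29 in Cloudman S91 (4.89 to 7.96, 69 counts) and 3.88 in 4T1 (2.89 to 5.10, 51 counts). The level was 41.9-fold lower in B16-F1 than in Cloudman S91 (11.2 to 353) and 25.9-fold lower in B16-F1 than in 4T1 (6.80 to 219). Cloudman S91 was 1.62-fold higher than 4T1 (1.11 to 2.38).

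Casp4 (chromosome 9, 5308849 to 5336791, plus strand), whose product senses cytosolic lipopolysaccharide, starts 1.6 kb after the end of Casp1 and had another order of levels. It had 0.24 FPKM in B16-F1 (0.0495 to 0.701, from 3 counts), 1.07 in Cloudman S91 (0.534 to 1.91, 11 counts) and 6.40 in 4T1 (5.07 to 7.98, 79 counts). The level was 26.7-fold lower in B16-F1 than in 4T1 (8.80 to 132) and 5.98-fold lower in Cloudman S91 than in 4T1 (3.17 to 12.5). Between the melanoma lines it was 4.46-fold lower in B16-F1 (1.18 to 24.9), on 3 and 11 counts. Casp1 was thus 5.88 times the level of Casp4 in Cloudman S91 (3.09 to 12.3) and 0.606 times in 4T1 (0.418 to 0.873), while 2 and 3 counts give no order in B16-F1. Casp12, an inflammatory caspase that follows Casp4 at a distance of 8.7 kb, was not listed in B16-F1 or Cloudman S91 and had 4.87 FPKM in 4T1 from 111 counts. No 50-base window of Casp1, Casp4 or Casp12 occurs in a transcript of another gene. In 4T1 the 3 adjacent caspase genes lay between 3.88 and 6.40 FPKM, and in B16-F1 none was above 0.24.

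**Figure D2:**
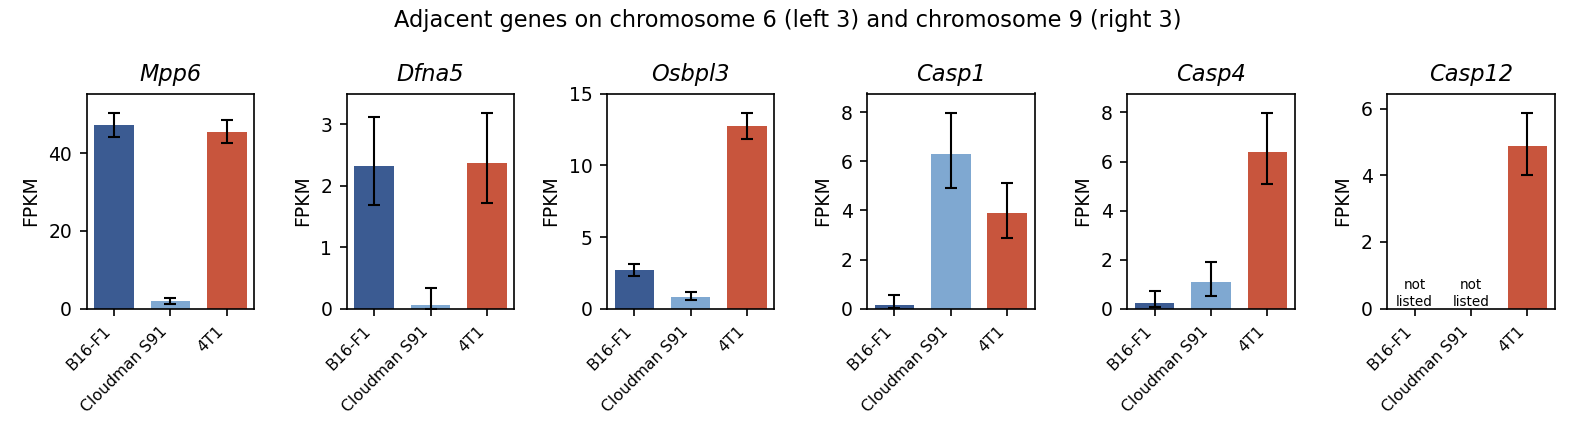
FPKM (linear axis from 0, one scale per gene) of Dfna5 between its neighbours Mpp6 and Osbpl3, and of the adjacent genes Casp1, Casp4 and Casp12, in the single libraries of B16-F1, Cloudman S91 and 4T1, with 95% counting intervals. Mpp6 and Dfna5 are both lowest in Cloudman S91, at 1.96 and 0.06, and Casp12 is listed in 4T1 alone, at 4.87.

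Casp8 (chromosome 1, 58795233 to 58847503, plus strand), the initiator caspase of death receptors and a brake on necroptosis, was the only 1 of the 9 genes at FPKM 1 or more in all 3 lines. It had 35.54 FPKM in B16-F1 (33.1 to 38.1), 14.51 in Cloudman S91 (12.8 to 16.4) and 30.38 in 4T1 (28.1 to 32.8), above 83.0%, 65.3% and 78.6% of the named genes listed in these libraries. The level was 2.45-fold higher in B16-F1 than in Cloudman S91 (2.13 to 2.82), 2.09-fold lower in Cloudman S91 than in 4T1 (1.81 to 2.42) and 1.17-fold higher in B16-F1 than in 4T1 (1.05 to 1.30). In B16-F1 Gsdmc and Casp8 were the 2 highest of the 9 genes. Cflar, which lies beside Casp8 and encodes its regulator c-FLIP, varied less, with 21.08 in B16-F1 and 19.35 in Cloudman S91, against 16.96 in 4T1. Among 50-base windows of Casp8, 5.05% also occur in a transcript of Gm20257.

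Pycard (chromosome 7, 127991373 to 127993867, minus strand) divided the melanoma lines from 4T1. It had 10.40 FPKM in B16-F1 (9.0 to 12, 197 counts), 11.27 in Cloudman S91 (9.66 to 13.1, 174 counts) and 0.16 in 4T1 (0.0330 to 0.468, from 3 counts). The melanoma lines did not differ beyond counting error, with a ratio of 0.923 for B16-F1 over Cloudman S91 (0.749 to 1.14). The level was 65.0-fold higher in B16-F1 than in 4T1 (21.9 to 318) and 70.4-fold higher in Cloudman S91 than in 4T1 (23.7 to 345). Of the 2135 exonic bases of Pycard within its RefSeq span, 485 are also exonic in Gm45205 on the opposite strand. The sources used here do not say whether counting used strand, so reads from that stretch cannot be assigned to either gene. A flanking coding gene, Trim72, was not listed in B16-F1 and had 0.28 in Cloudman S91 and 0.42 in 4T1.

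Nlrp3 (chromosome 11, 59541569 to 59566955, plus strand) was not listed in B16-F1 or Cloudman S91, where 3 counts would be 0.0820 and 0.101 FPKM. In 4T1 it had 0.39 FPKM (0.213 to 0.654) from 14 counts. Against 3 counts in their place, the level was 4.76-fold lower in B16-F1 and 3.87-fold lower in Cloudman S91 than in 4T1. These folds leave out the counting error of the 14 counts, so the true lower bounds are smaller. It stayed under FPKM 1 in every library.

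The 9 genes thus formed another combination in each line. At FPKM 1 or more were Gsdmc, Dfna5, Casp8 and Pycard in B16-F1, Gsdmd, Casp1, Casp4, Casp8 and Pycard in Cloudman S91, and Gsdmd, Dfna5, Casp1, Casp4 and Casp8 in 4T1. Pycard, Casp1 and Gsdmd reached that level together in Cloudman S91, where Casp1 was 0.558 times Pycard (0.416 to 0.742) and Gsdmd 0.174 times Pycard (0.110 to 0.265). In B16-F1 Gsdmd was 0.0365 times Pycard (0.0132 to 0.0810), and in 4T1 it was 51.2 times Pycard (17.2 to 251, on 3 counts of Pycard).

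Differences were also read on the scale of log2(FPKM + 1), where a difference of 2 or larger (4-fold on that scale) was called, provided that either line of the pair reached FPKM 1. For B16-F1 minus Cloudman S91, 7 of the 9 genes could be compared. Gsdmc (5.72) was called higher in B16-F1, as were 2.33% of all 11133 genes, and Casp1 (-2.66) was called higher in Cloudman S91, as were 3.19% (5.52% in either direction). The median of the 7 genes was -0.11, beside 0.14 over all genes. For B16-F1 minus 4T1, 7 genes were compared. Gsdmc (5.72) and Pycard (3.30) were called higher in B16-F1, as were 6.31% of all 11547 genes, and Gsdmd (-2.74), Casp4 (-2.58) and Casp1 (-2.09) were called higher in 4T1, as were 7.43% (13.7% in either direction). The median was -0.02, beside 0.03 over all genes. For Cloudman S91 minus 4T1, 6 genes were compared and Pycard (3.40) was called higher in Cloudman S91, as were 7.47% of all 11657 genes. None was called higher in 4T1, as were 8.01% (15.5% in either direction), and Casp4 (-1.84), Dfna5 (-1.67) and Gsdmd (-1.63) lay just under the size rule. The median was -1.33, beside -0.14 over all genes. Each line enters a pair of these comparisons, and the genes were picked with these values known, so nothing is read from the shares. Under TPM, the FPKM of each library scaled to a common sum, the genes called over the whole tables were 1188 higher in B16-F1 and 909 higher in 4T1, against 729 and 858 under FPKM, and 1414 higher in Cloudman S91 and 945 higher in 4T1, against 871 and 934. The scale understates folds of low genes: Dfna5, 38.7-fold higher in B16-F1 than in Cloudman S91, differed by 1.65.

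**Figure D3:**
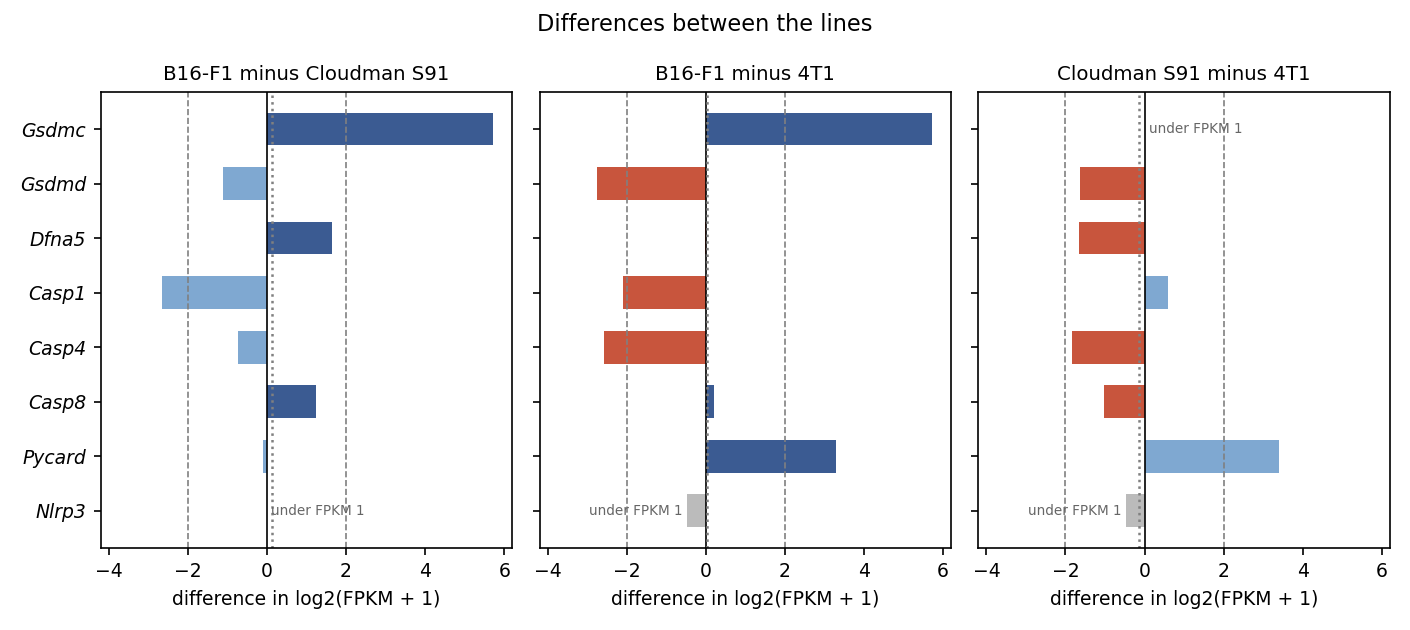
Differences in log2(FPKM + 1) for the 8 listed genes in the 3 pairs of lines, positive where the first-named line is higher and coloured by the line with the higher level. Dashed lines mark the size rule of 2 and the dotted line the median over all genes, and Gsdmc in B16-F1 (5.72) and Pycard against 4T1 (3.30 and 3.40) reach farthest to the right.

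Other inflammasome sensors were low in all lines. Of 12 such genes 10 were in a table and 2 reached FPKM 1. Just 1 could be compared between the melanoma lines. Against 4T1, 2 were compared in B16-F1 and 1 in Cloudman S91. None was called in any pair. Shares of all genes called in either direction were 5.52%, 13.7% and 15.5% in that order, so nothing is read from this. Nlrp1a had 0.14 FPKM in B16-F1 and 0.63 in Cloudman S91, against 3.52 in 4T1. Its level was 25.1-fold lower in B16-F1 than in 4T1 (11.3 to 69.6), a difference of -1.99, just under the size rule. Naip2, a receptor for bacterial secretion proteins whose close paralogues can share reads, had 1.55 in B16-F1, with 0.03 in Cloudman S91 and 0.14 in 4T1. Naip2 was 51.7-fold higher in B16-F1 than in Cloudman S91 (8.99 to 2078, on 1 count in Cloudman S91). Aim2, the DNA sensor, was at most 0.18, in 4T1, and Nlrc4 at most 0.57, in Cloudman S91, both named after their values were seen. Among 15 inflammasome regulators, 13 were in a table. None of the 9 compared between the melanoma lines was called, where 5.52% of all genes were in either direction. Pstpip1 and Casp12 were called higher in 4T1 against both, 2 of 11 compared genes in each pair. The shares over all genes were 7.43% against B16-F1 and 8.01% against Cloudman S91. Pstpip1, an adaptor that binds pyrin, had 0.73 in B16-F1 and 0.15 in Cloudman S91, against 8.19 in 4T1. Median differences of the regulators were 0.37 between the melanoma lines, -0.13 for B16-F1 against 4T1, and -0.09 for Cloudman S91 against 4T1, beside 0.14, 0.03 and -0.14 over all genes in that order, which later lists keep. Serpinb6a, a serpin, had 76.35 FPKM in B16-F1, with 58.72 in Cloudman S91 and 156.68 in 4T1, and Serpinb9, the granzyme B inhibitor, had 2.56 in B16-F1 and 0.97 in Cloudman S91, against 3.24 in 4T1.

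The guanylate-binding and immunity-related GTPases, which act on pathogen membranes upstream of caspase-11, were mostly within the size rule, as were most of all genes. Their median difference from 4T1 was -1.11 in B16-F1 (9 compared genes) and -1.45 in Cloudman S91 (8 compared genes). The size rule called Gbp9 higher in 4T1 in both pairs and Gbp3 against Cloudman S91. So 1 of 9 and 2 of 8 compared genes were called, beside 7.43% and 8.01% of all genes. Irgm2, named after its values were seen, had 1.1 FPKM in B16-F1 and was not listed in Cloudman S91 or 4T1. Gbp9 was not listed in either melanoma line and had 7.26 FPKM in 4T1, Gbp3 had 0.95 in B16-F1, was not listed in Cloudman S91 and had 6.39 in 4T1, and Gbp4 was not listed in either melanoma line and had 2.77 in 4T1. Gbp2 had 1.82 in B16-F1, with 0.95 in Cloudman S91 and 5.05 in 4T1. These genes are close copies of each other and can share reads. Between the melanoma lines the median over 4 compared genes was 0.24 and none was called, where 5.52% of all genes were in either direction.

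Among 16 genes of the interleukin-1 family, its receptors and membrane rupture, 13 were in a table. Il1a, an alarmin cytokine, had 0.06 FPKM in B16-F1, was not listed in Cloudman S91 and had 12.15 in 4T1, and Il18rap, a subunit of the interleukin-18 receptor, was not listed in the melanoma lines and had 6.78 in 4T1. Both were called higher in 4T1 in both pairs and no other gene of the list was called in any pair. These were 2 of 8 compared genes against B16-F1 and 2 of 9 against Cloudman S91, beside 7.43% and 8.01% of all genes. Between the melanoma lines 5 genes of the list were compared, and 5.52% of all genes were called in either direction. Il1f9, the gene of interleukin-36 gamma, had 0.40 in B16-F1 and 3.34 in Cloudman S91, against 1.48 in 4T1, and the receptor Il1r1 was not listed in B16-F1 and had 0.03 in Cloudman S91 and 2.0 in 4T1. The cytokines that caspase-1 matures were low, which was looked up after the values were seen: Il1b was not listed in the melanoma lines and had 0.26 in 4T1, from 3 counts, and Il18 had 0.81 in B16-F1, with 0.17 in Cloudman S91 and 2.04 in 4T1. Ninj1, whose product ruptures the membrane late in lytic death, had 47.91 in B16-F1 and 30.19 in Cloudman S91, against 28.29 in 4T1, also named after its values were seen. The median differences were 0.04, -0.79 and 0.09.

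The partners of caspase-8 and the apoptotic caspases were mostly within the size rule, as were most of all genes. Of 15 caspase-8 and necroptosis partners, all in a table, Fas and Birc3 were called higher in 4T1 against both melanoma lines. That was 2 of 15 compared genes against B16-F1 and 2 of 14 against Cloudman S91, beside 7.43% and 8.01% of all genes. Fas, a death receptor, had 0.22 FPKM in B16-F1, was not listed in Cloudman S91 and had 8.68 in 4T1. Birc3, an inhibitor of apoptosis protein, had 0.40 in B16-F1, with 0.34 in Cloudman S91 and 11.66 in 4T1. Zbp1, a nucleic acid sensor of necroptosis, was not listed in B16-F1 and had 0.75 in Cloudman S91 and 1.84 in 4T1, and Tnfrsf10b, the TRAIL receptor, had 6.39 in B16-F1 and 10.51 in Cloudman S91, against 17.74 in 4T1. The median differences were 0.06, 0.20 and -0.30. Ripk3, the kinase that starts necroptosis, had 1.14 in B16-F1 and was not listed in Cloudman S91 or 4T1, while Mlkl, its target, had 25.93 in B16-F1, with 26.05 in Cloudman S91 and 31.59 in 4T1. Both were named after their values were seen. Of 11 apoptotic caspase and apoptosome genes, 10 were compared and none was called between B16-F1 and either other line. Over all genes 5.52% were called in either direction against Cloudman S91 and 13.7% against 4T1, so nothing is read from this. Apaf1, the apoptosome scaffold, was called higher in Cloudman S91 than in 4T1, as were 7.47% of all genes. It had 19.06 in B16-F1, with 25.02 in Cloudman S91 and 4.30 in 4T1. Cycs, cytochrome c, had 48.48 in B16-F1, with 26.23 in Cloudman S91 and 21.46 in 4T1. The median differences were 0.82, 0.46 and 0.05.

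Membrane repair genes of the ESCRT-III machinery, which can shed gasdermin pores, were abundant, and 14 of the 15 were not called in any pair. The exception, Chmp4c, had 0.51 FPKM in B16-F1, was not listed in Cloudman S91 and had 7.18 in 4T1. It was called higher in 4T1 against both melanoma lines, 1 of 15 compared genes in each pair, beside 7.43% and 8.01% of all genes. Between the melanoma lines 14 genes of the list were compared, and 5.52% of all genes were called in either direction. Chmp1b had 10.47 in B16-F1 and 28.57 in Cloudman S91, against 11.08 in 4T1, and Pdcd6ip, the gene of ALIX, had 39.31 in B16-F1, with 26.33 in Cloudman S91 and 55.96 in 4T1. The median differences were 0.41, -0.05 and -0.20. Of 12 interferon and NF-kappaB factors, which are known to drive several of the genes above in macrophages, 5 were called higher in 4T1 than in B16-F1, where 7.43% of all genes were, and 6 higher in 4T1 than in Cloudman S91, where 8.01% were. Their medians under FPKM were -1.50 and -1.51, beside 0.03 and -0.14 over all genes. TPM moves the medians over all genes to 0.38 and 0.31, and those of the list were not recomputed on that scale. Irf1 had 4.99 in B16-F1 and 4.18 in Cloudman S91, against 54.31 in 4T1, Nfkb2 had 11.05, 14.19 and 130.19 in the same order, and Relb 3.41, 4.79 and 41.38. Between the melanoma lines the median was -0.28. Nfkb1 (15.75 in B16-F1 and 3.11 in Cloudman S91) was called higher in B16-F1, as were 2.33% of all genes.

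**Figure D4:**
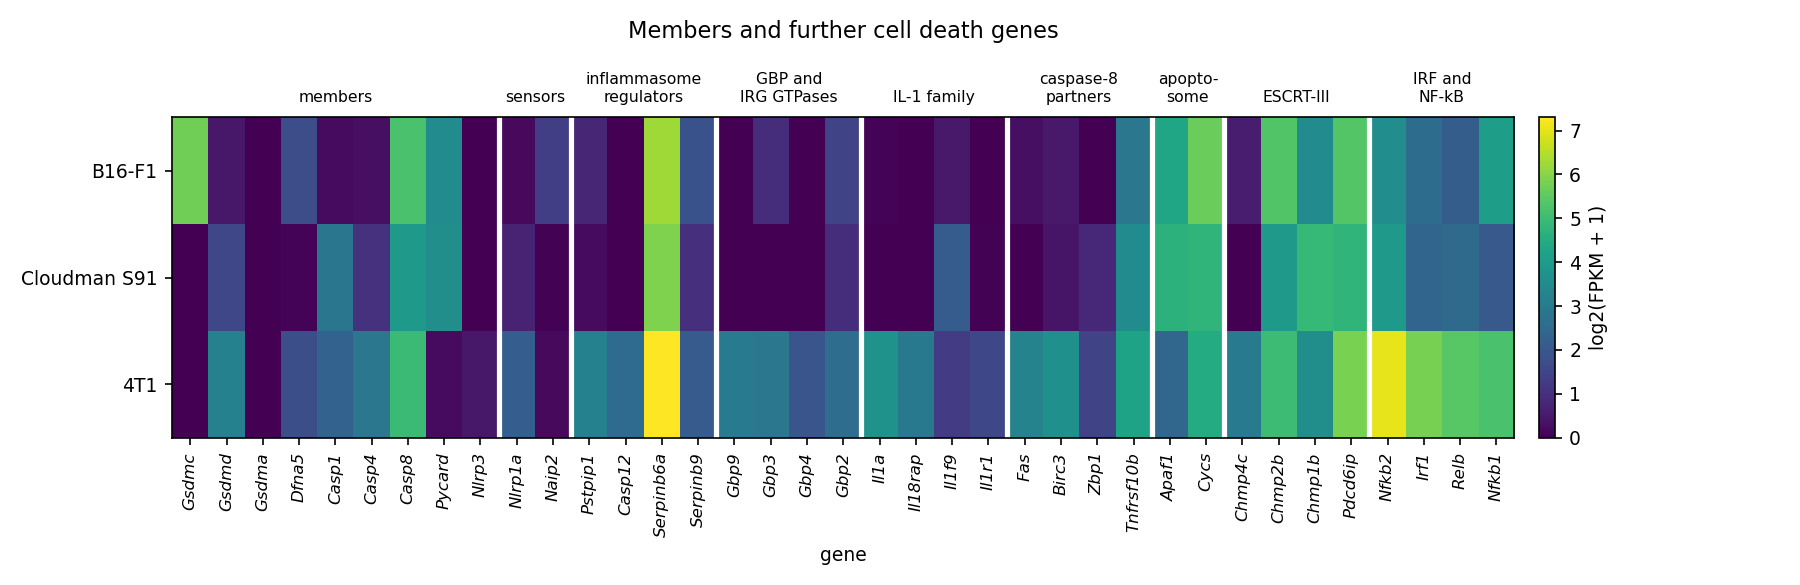
Levels in log2(FPKM + 1), as colour, of the 9 genes (left block) and of up to 4 genes from each further list in the libraries of B16-F1, Cloudman S91 and 4T1 (rows). The 4T1 row is brighter for Gsdmd, Casp4, Il1a, Fas, Birc3 and Nfkb2, and dark for Gsdmc and Pycard.

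Inflammasome genes are often read as signs of macrophages, so 12 macrophage markers were set beside them. They summed to 4.32 FPKM in B16-F1, with 124.85 in Cloudman S91 and 19.78 in 4T1, with 2 markers at FPKM 1 or more in each. In Cloudman S91 the sum was nearly all Fcer1g (122.27), and in 4T1 it was mostly Cd68 (11.38) and Cd14 (8.08). The defining markers were at or near 0: Ptprc was 0.06 in B16-F1 and not listed in Cloudman S91 or 4T1, Adgre1 had 0.03 in B16-F1, with 0.08 in Cloudman S91, and was not listed in 4T1, and Itgam was 0.02 in B16-F1 and not listed in Cloudman S91 or 4T1. Lymphocyte markers summed to 0.40 in B16-F1 and 1.47 in Cloudman S91, against 2.79 in 4T1, with 8 of 10 in no table. Keratinocyte markers summed to 0.30 in B16-F1, with 0.28 in Cloudman S91 and 24.44 in 4T1, of which Krt14 was 20.65, and fibroblast markers to 2.95 in B16-F1 and 18.46 in Cloudman S91, against 1.21 in 4T1, of which Pdgfra was 15.61 in Cloudman S91. The part of Fcer1g, Cd68, Cd14, Krt14 and Pdgfra in the results was not tested.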

How the data were processed

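Total RNA of frozen cell pellets was treated with DNase, enriched with oligo(dT), fragmented, copied and amplified, per the labels' protocols. The company BGI sequenced and processed the reads, per the design text. The submitters' processing notes name HISAT, StringTie and build mm10, with no versions. Neither the counting program nor the use of strand is named there or in the labels. The authors' deposited tables give 1 expected count and 1 FPKM per gene, per the file headers. Between 88.1% and 88.9% of the expected counts were whole (within 0.005), and the authors' FPKM values are per kilobase and scaled to library size. Rows without a symbol (2.36%, 2.24% and 4.32% of the counts in B16-F1, Cloudman S91 and 4T1) stayed out, and none is described as a product of the 9 genes.

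The genes and lists were chosen with earlier results of these data known. With 1 library per line no test was possible. Intervals are exact 95% Poisson (single values) or conditional binomial (ratios), from rounded counts, and leave out duplication by PCR. The code of the size rule was run on simulated counts with changes planted in well-counted genes. That run checks the code and says nothing of calls that rest on few counts. The text names the 9 genes, up to 4 genes of each list with the largest differences among those at FPKM 1 or more, and, for genes at FPKM 10 or more, the 2 genes nearest in level, and a few results that this rule would give are not reported here. Gene spans are from RefSeq GRCm38.p6, the build of mm10, and strands and shared exonic bases from GENCODE vM21. Python 3.11.15, numpy 2.4.6, pandas 2.3.3 and scipy 1.17.1 were used. The alternatives were 2 pseudocounts, 2 filters, 3 scalings, scaled counts, 2 size rules and summed copies.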

Additional observations from a re-analysis of the deposited data

How the results depend on the processing

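No member turned its called direction under any of the 11 alternatives, which says little. The pseudocounts, filters and size rules use the same FPKM values and cannot turn a direction. Summed copies change Gsdmc alone among the members. The 3 scalings multiply every gene of a library alike, and they moved the medians over all genes by far less than the size rule. Median-of-ratios scaling, both filters and summed copies left the counts of called members within 1.5 times. With an FPKM minimum of 5, Casp1 was no longer compared between B16-F1 and 4T1. That left 2 called higher in 4T1 (8.31% of all genes). Of 168 recomputed member differences, 61 moved beyond the counting interval of the difference in log2(FPKM + 1). Each pseudocount gave 14 of these, and such shifts follow from the formula on the same counts. With a pseudocount of 0.1, 2 genes were called higher in B16-F1 (4.86% of all genes) and 2 in Cloudman S91 (5.96%) for that pair, and 3 were called higher in 4T1 than in Cloudman S91 (Casp4, Dfna5 and Gsdmd; 12.2%). With a pseudocount of 5, 0 were called higher in Cloudman S91 than in B16-F1 (1.02% of all genes). At that setting 1 was called higher in B16-F1 than in 4T1 (Gsdmc; 2.64%) and 0 higher in 4T1 than in B16-F1 (3.43%). None was called higher in Cloudman S91 than in 4T1 (2.81%). Under TPM, over all genes or leaving out the 50 most abundant, 2 were called higher in B16-F1 than in Cloudman S91 (Gsdmc and Dfna5). The shares of all genes were 3.27% and 3.30%. Both settings called 1 higher in 4T1 than in Cloudman S91 (Dfna5), beside 7.67% and 8.20% of all genes. In scaled counts, 2 were called higher in B16-F1 than in Cloudman S91 (3.71% of all genes). On that scale 2, Dfna5 and Gsdmd, were called higher in 4T1 than in Cloudman S91 (10.0%). A 2-fold rule called 3 higher in B16-F1 (10.9% of all genes) and 2 in Cloudman S91 (9.11%) for that pair, and 4 higher in 4T1 than in Cloudman S91 (22.5%). An 8-fold rule called 0 higher in Cloudman S91 than in B16-F1 (1.46% of all genes) and 0 higher in 4T1 than in B16-F1 (4.01%). For the fold rules the change follows from the threshold and for the pseudocounts from the formula, and for the others the cause was not tested. TPM moved the median difference from 4T1 over all genes to 0.38 in B16-F1 and 0.31 in Cloudman S91, against 0.03 and -0.14 under FPKM, and leaving out the 50 most abundant genes moved that between the melanoma lines to -0.10, against 0.14. The sign of the small Dfna5 difference between B16-F1 and 4T1 (-0.02) changed under TPM. No paired analysis was possible because each line has 1 library. Depth limits Casp1 and Casp4 in B16-F1, Dfna5 in Cloudman S91 and Pycard in 4T1, which rest on 1 to 3 counts.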

Other observations

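For the genes that reached FPKM 10, the genes nearest in log2(FPKM + 1) over the 3 libraries were looked up. The search covered 11556 named genes at FPKM 1 or more in a line and left out symbols with a Gm number, Rik or LOC. Counts of genes within a distance hold for this set only. Likeness is the Euclidean distance, 3 libraries fix no pattern closely, and no shared control is implied. Gsdmc had few genes near it. The nearest was Sgce, an imprinted sarcoglycan gene, with 44.61 FPKM in B16-F1, 0.24 in Cloudman S91 and not listed in 4T1 (distance 0.37). The next was Foxr2, a forkhead factor gene, with 32.67 in B16-F1 and not listed in Cloudman S91 or 4T1 (distance 0.65), and Sgce was the only gene within 0.5. Pycard had 20 genes within 0.5, the nearest being Klf15, a zinc finger factor gene (10.44 in B16-F1, 10.95 in Cloudman S91, not listed in 4T1, distance 0.22), and Bhlhb9 (9.85 in B16-F1, 10.98 in Cloudman S91, not listed in 4T1, distance 0.23). Casp8, which differed least between the lines, had 76 genes within 0.5, with Zc3hc1 (33.91 in B16-F1, with 15.43 in Cloudman S91 and 28.91 in 4T1) and the ESCRT-III gene Chmp2b (38.81, 14.13 and 30.83 in the same order) nearest, both at 0.13.

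Levels of genes that flank the others, chosen after their values were seen, were as follows. Beside Gsdmd, Zc3h3 had 8.59 FPKM in B16-F1 and 8.08 in Cloudman S91, against 6.34 in 4T1, and Mroh6 had 0.43 in B16-F1, with 0.28 in Cloudman S91 and 0.34 in 4T1. Beside Gsdma, which no table lists, the proteasome gene Psmd3 had 110.87 in B16-F1 and 77.42 in Cloudman S91, against 101.95 in 4T1, while Csf3, the granulocyte colony-stimulating factor gene behind it, was not listed in the melanoma lines and had 84.19 in 4T1. Beside Nlrp3, Zkscan17 had 19.49 in B16-F1, with 17.61 in Cloudman S91 and 37.27 in 4T1.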
